A study of Mus musculus with 9 samples.

Results

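The Fc gamma receptors are the cell surface receptors for the constant (Fc) part of IgG antibodies, and 6 mouse genes are described here: the activating receptors Fcgr1, Fcgr4 and Fcgr3, their shared signalling chain Fcer1g, the inhibitory receptor Fcgr2b and the Fc receptor-like gene Fcrls. The members were chosen by name, as 6 of the 18193 genes that the platform annotation names on the array, with every probe set that carries 1 of these symbols alone. That gave 11 of the 45037 probe sets that are not controls. Of the 11, 10 passed the filter on low signals and were tested, and the probe set 1447622_at of Fcgr2b did not pass it, with signals of 0.642 to 10.5 on the 9 arrays.

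The study profiled RNA of dendritic cells on 9 Affymetrix mouse arrays, 3 in each of 3 groups. Bone marrow of 129/SvEv mice was cultured with GM-CSF, a growth factor for myeloid cells, for 9 to 12 days. Wild-type cells were left unstimulated (WT media) or received purified DNA of tumor cells with lipofectamine for 7 hours (WT tumor DNA), and cells with a STING knockout, labelled with the same strain background, received the same stimulus (STING tumor DNA). STING is the adaptor that relays the sensing of cytosolic DNA, so the comparisons ask how Fc receptor transcripts differ after DNA and between the genotypes under DNA. The labels give neither the knockout allele nor the tumor line. Knockout cells in media and lipofectamine alone were not analysed here. What the DNA did and what the lipid did therefore cannot be told apart, nor can a genotype difference that preceded stimulation. Each array carries a replicate number from 1 to 3, and the labels do not say that numbers are different mice or cultures, so a p-value here speaks only for the spread between these 9 samples.

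Activating Fc gamma receptors pair with the chain encoded by Fcer1g, whose ITAM motif is phosphorylated by Src family kinases and recruits the kinase Syk, which leads to phagocytosis and cytokine release. Fcgr2b carries an inhibitory ITIM motif that recruits phosphatases and sets the threshold for activation on the same cell. In dendritic cells this balance is known to control the uptake of antigen bound in immune complexes and its presentation to T cells.

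The sequences upstream of Fcgr1, Fcgr4 and Fcgr2b are shown because Fcgr1 and Fcgr4 were called in the same direction in both main comparisons, while Fcgr2b, which lies next to Fcgr4, differed the opposite way. Each run is the 250 bases before the annotated start, from RefSeq on GRCm38.p6, 5′ to 3′ on the strand of the gene. It spans chr3:96293970-96294219 (minus strand) for Fcgr1, chr1:171018676-171018925 (plus strand) for Fcgr4 and chr1:170976072-170976321 (minus strand) for Fcgr2b. Capitals mark matches, on either strand, to TTCNNNGAA (the GAS motif bound by STAT dimers), GAAANNGAA (a core of the ISRE bound by interferon regulatory factors) and GAGGAA (the core bound by ETS factors such as PU.1, read as TTCCTC on the other strand).
Fcgr1: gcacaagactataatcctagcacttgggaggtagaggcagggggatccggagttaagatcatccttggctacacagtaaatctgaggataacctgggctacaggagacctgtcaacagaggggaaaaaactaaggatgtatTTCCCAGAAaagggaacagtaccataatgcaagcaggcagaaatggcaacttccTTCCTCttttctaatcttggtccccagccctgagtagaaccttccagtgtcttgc
Fcgr4: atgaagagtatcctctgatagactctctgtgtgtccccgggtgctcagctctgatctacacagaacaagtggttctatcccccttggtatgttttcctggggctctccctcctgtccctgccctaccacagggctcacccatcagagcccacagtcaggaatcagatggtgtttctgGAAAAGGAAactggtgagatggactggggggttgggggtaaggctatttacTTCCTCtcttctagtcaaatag
Fcgr2b: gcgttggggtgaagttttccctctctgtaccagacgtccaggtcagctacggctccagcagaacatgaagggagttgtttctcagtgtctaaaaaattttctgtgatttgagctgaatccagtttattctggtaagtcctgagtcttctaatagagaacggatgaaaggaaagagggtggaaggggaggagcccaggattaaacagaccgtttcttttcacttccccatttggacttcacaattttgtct
The Fcgr1 run holds TTCCCAGAA starting 109 bases before the start, and the Fcgr4 run holds GAAAAGGAA starting 73 bases before it. Both also hold TTCCTC, at 55 bases in Fcgr1 and at 22 bases in Fcgr4. The motifs were searched in windows of 300 bases (250 before and 50 after the start), and all 6 genes had at least 1 such window. TTCNNNGAA was found in 8.3% and GAAANNGAA in 8.6% of 32851 windows, and among the 6 genes each was found in 1, Fcgr1 and Fcgr4 respectively. GAGGAA was found in 28.3% of the windows and in those of Fcgr1, Fcgr3, Fcgr4 and Fcrls. The motifs were chosen after these sequences were seen, and a match is a run of letters, not a measured site.

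On each array the mean signal between the 2nd and 98th percentiles was 500, so a common scale had been set. Sting1, the targeted gene, read 1061 to 2258 in WT tumor DNA and 246 to 336 in STING tumor DNA on its leading probe set (log2 difference -2.17 ± 0.35, limma adjusted p = 0.00162), and whether its probes lie in the altered stretch is not known. Of the dendritic cell markers, Flt3 was under the filter. Zbtb46 (54.1 to 226) and Cd209a (17.6 to 184) had low signals, and Ciita read 176 to 873. Ccr7 was called higher in WT tumor DNA than in WT media (1.20, limma adjusted p = 0.0201). Dcstamp was called higher there too (0.61, 0.0466) and lower in STING tumor DNA than in WT tumor DNA (-0.66, 0.0365). Itgax, the class II genes and Cd74 were far above the filter. Macrophage markers were high too (10 of 12 tested, summed signal 90900 to 135000 in WT media, 89900 to 140000 in WT tumor DNA and 81600 to 126000 in STING tumor DNA), and their part in the results below was not tested. Of the neutrophil markers 7 of 10 were tested, with summed signals of 17100 to 71200, 24900 to 91200 and 35000 to 41800 in the same order of groups. Their median difference in the knockout against wild type under DNA was -1.08, with Mpo called lower (-1.08, limma adjusted p = 0.0428), or 4 lower with the replicate number as a block, and 0 were called under DNA. Of the B cell markers 4 of 6 were tested, with a median of -1.20 in the knockout, where Cd22 alone was called (higher, at 0.70), and with that block 3 were lower. Cd22 was also the only B cell marker called under DNA (lower, at -0.77, limma adjusted p = 0.0168), where the median was 0.15. Shares of all genes called with that block are not given here, so these block counts are not read as a trait of either marker list. Neutrophils also express Fcgr4 and Fcer1g, and B cells Fcgr2b, and the part of such cells in the differences of these genes was not tested. In such bulk RNA, fewer cells of a type and less RNA per cell cannot be told apart. The median tested probe set differed by -0.16 between WT tumor DNA and WT media and by 0.16 between STING tumor DNA and WT tumor DNA, both in log2.

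Under tumor DNA, wild-type cells had more transcript of the activating receptors Fcgr1 and Fcgr4 and, by a smaller margin, of the signalling chain Fcer1g. Knockout cells under the same stimulus had less of all 3 than wild-type cells. Fcgr3, also an activating receptor, differed little between any groups. The inhibitory Fcgr2b lay lower in WT tumor DNA than in the other groups on all 4 tested probe sets, by differences near the limit of the test, and Fcrls was higher in STING tumor DNA than in WT tumor DNA. Differences are of log2(signal + 16) with the standard error from limma, and a probe set was called at an adjusted p below 0.05 over all 27022 probe sets tested. The fit did not use the replicate number, except where a block is named, and some calls differ with that block.

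In WT tumor DNA against WT media, 4 of the 10 tested probe sets were higher and 0 lower, where 27.0% of all probe sets were called, 8.54% higher and 18.4% lower. At an unadjusted p below 0.05 in limma, 3 of the 10 were lower, all of Fcgr2b. They ranked 7521 to 8789 by p among the 27022 probe sets tested. In STING tumor DNA against WT tumor DNA, 6 of the 10 were called, 2 higher and 4 lower, where 25.1% of all were called, 16.8% higher and 8.35% lower. In STING tumor DNA against WT media, limma called 0 of the 10, where 0.381% of all were called. Fcrls alone had an unadjusted limma p below 0.05 there (0.0393, rank 1601 of 27022). It was called there when the replicate number entered the fit as a block (limma adjusted p = 0.0164). Sting1 itself was not called on either probe set in that comparison (-1.72 ± 0.35 and -1.44 ± 0.38, limma adjusted p = 0.0912 and 0.236). The 0 calls therefore do not show equal levels. Groups did not overlap there for 0 of the 10, where they did not for 13.0% of all probe sets. The probe sets of a gene share its transcripts and count as 1 gene: by leading probe sets, 3 of 6 genes were called under DNA, all higher, where 32.0% of 12586 genes were called and 9.53% higher. In the knockout 4 of 6 were called, 3 of them lower, where 29.9% were called and 9.40% lower. The comparisons share arrays, each of the first 2 using WT tumor DNA, so opposite signs in them are not separate evidence.

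**Figure D1:**
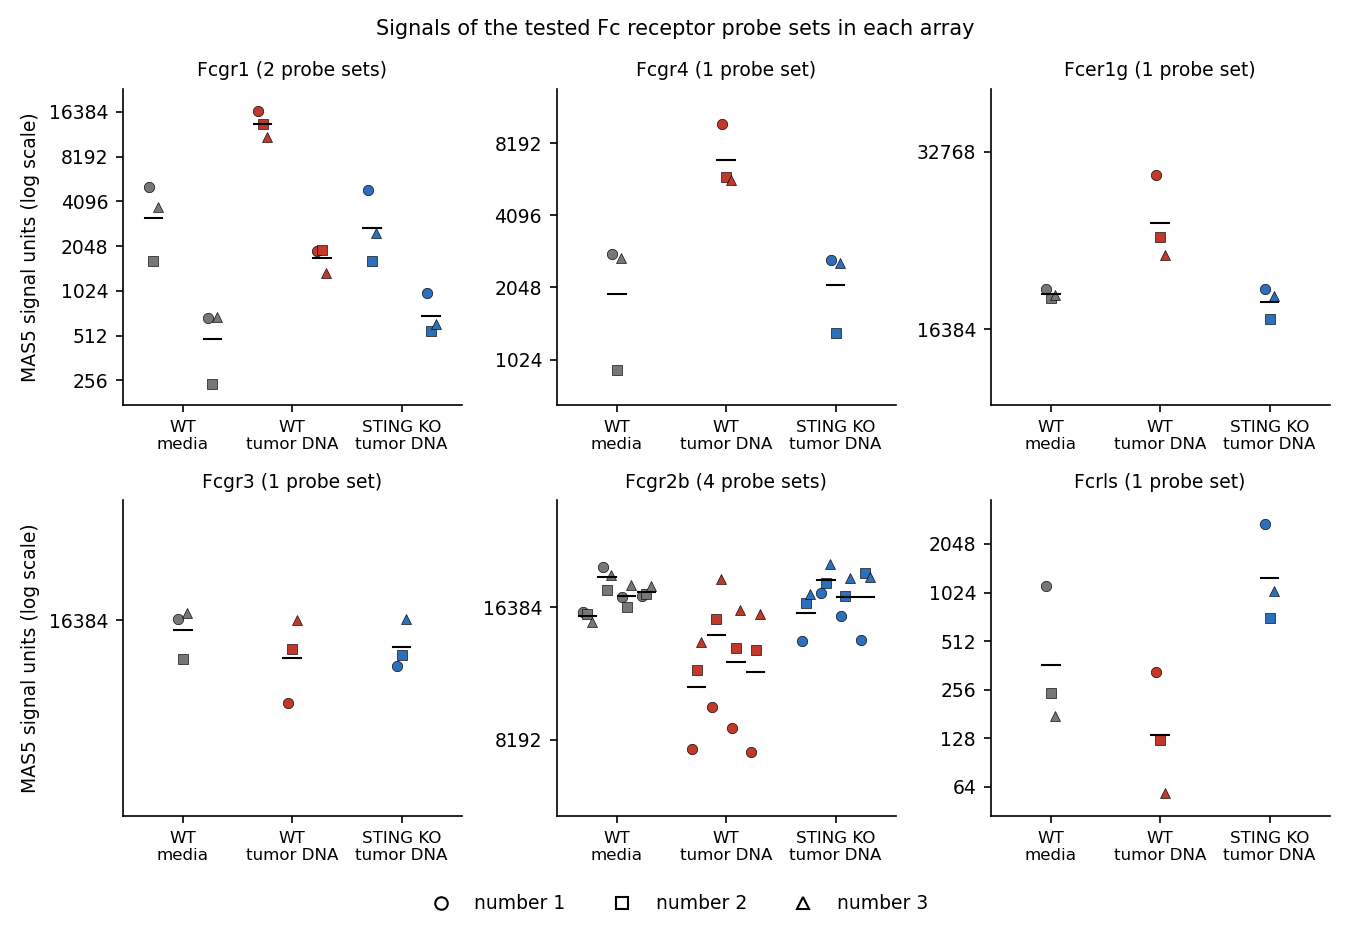
Signals of the 10 tested probe sets on each of the 9 arrays, in MAS5 units on a log scale, by group, with the replicate number as the marker shape and the geometric mean of each group as a bar. Fcgr1 and Fcgr4 are higher on all 3 WT tumor DNA arrays (red) than on any other array, Fcgr3 overlaps throughout, and number 1 of WT tumor DNA has the lowest value on each Fcgr2b probe set.

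Fcgr1 encodes the high-affinity IgG receptor. Its leading probe set, 1417876_at, read 5157, 1626 and 3789 in WT media for numbers 1, 2 and 3, 16709, 13644 and 11086 in WT tumor DNA, and 4911, 1624 and 2515 in STING tumor DNA. Every WT tumor DNA array was above every array of the other groups, which overlapped each other, and number 2 was the lowest of both low groups. The log2 difference was 2.10 ± 0.45 for WT tumor DNA against WT media (4.28-fold, limma adjusted p = 0.00695) and -2.32 ± 0.45 for STING tumor DNA against WT tumor DNA (4.99-fold lower, limma adjusted p = 0.00409). The second probe set, 1436625_at, read 675, 244 and 688, then 1906, 1942 and 1344, then 991, 548 and 618 in the same order. It gave the same arrangement of groups at lower signals. Its log2 differences were 1.78 ± 0.38 (limma adjusted p = 0.00695) and -1.28 ± 0.38 (limma adjusted p = 0.0316). Between STING tumor DNA and WT media the leading probe set differed by -0.22 (95% interval -1.21 to 0.77) and the second by 0.50 (-0.33 to 1.34), and both intervals include 0. Without all arrays numbered 3, the calls of the leading probe set ended, at limma adjusted p = 0.0658 and 0.0653. The second probe set kept its call for DNA against media under every setting run and lost the knockout call (limma adjusted p 0.0535 to 0.131) when WT tumor DNA 1 or 2, STING tumor DNA 2 or 3, or all arrays of any number were left out.

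Fcgr4 encodes a further activating receptor, found in mice, that binds certain IgG subclasses. Its probe set read 2820, 925 and 2717 in WT media, 9840, 5907 and 5751 in WT tumor DNA, and 2664, 1318 and 2598 in STING tumor DNA. The WT tumor DNA arrays again all stood above the others, with number 1 highest, and number 2 was lowest in the other groups, as for Fcgr1. The log2 difference was 1.84 ± 0.43 under DNA (3.59-fold, limma adjusted p = 0.0106) and -1.72 ± 0.43 in the knockout against wild type (3.30-fold lower, limma adjusted p = 0.0147). Between STING tumor DNA and WT media it was 0.12 (95% interval -0.83 to 1.07). Without the arrays numbered 3 the DNA call ended (limma adjusted p = 0.0585), and the knockout call ended without number 3 (0.0764), number 1 (0.0538), WT tumor DNA 1 (0.0602) or STING tumor DNA 2 (0.0576).

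Fcgr3 encodes the low-affinity activating receptor. It read 16455, 14583 and 16748 in WT media, 12783, 15029 and 16393 in WT tumor DNA, and 14299, 14783 and 16438 in STING tumor DNA. The groups overlapped, and number 1 of WT tumor DNA was the lowest array. The log2 difference was -0.12 ± 0.12 under DNA (95% interval -0.38 to 0.15, limma adjusted p = 0.508) and 0.05 ± 0.12 in the knockout (-0.22 to 0.31, limma adjusted p = 0.809). These intervals leave out changes of the size seen for Fcgr1 and Fcgr4. The Fcgr3 signals were above the 98th percentile of their arrays (8360 to 10628). So were those of Fcer1g, most of Fcgr2b on its tested probe sets, and leading Fcgr1 in WT tumor DNA. Whether differences are compressed at such signals was not tested. The sign depended on the scaling: quantile normalization gave -0.36 and 0.31 (limma adjusted p = 0.0525 and 0.0883), and centring each array on the median of the tested probe sets, a setting added after the data were seen, gave 0.19 and -0.21 (0.349 and 0.294).

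Fcer1g encodes the ITAM-bearing chain that the activating receptors need for surface expression and signalling. It read 19186, 18473 and 18684 in WT media, 29912, 23446 and 21850 in WT tumor DNA, and 19161, 17029 and 18614 in STING tumor DNA. Every WT tumor DNA array was above every other array, number 1 by the widest margin. The log2 difference was 0.40 ± 0.12 under DNA (1.32-fold, limma adjusted p = 0.0308) and -0.44 ± 0.12 in the knockout (1.36-fold lower, limma adjusted p = 0.021), and between STING tumor DNA and WT media it was -0.04 (95% interval -0.31 to 0.22). Both calls ended under quantile normalization, which lowered the differences to 0.17 and -0.19 (limma adjusted p = 0.218 and 0.175), and under median centring over all probe sets (0.145 and 0.117), no filter (0.0879 and 0.0641) and no intensity trend (0.117 and 0.0927). They also ended without number 1, 2 or 3 (0.0711 to 0.125), without WT tumor DNA 1 (0.0895 and 0.0592), for the DNA call without WT media 1, 2 or 3 (0.0642 to 0.083), and for the knockout call without STING tumor DNA 2 or 3 (0.0694 and 0.0556).

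Fcgr2b encodes the inhibitory receptor, and its coding sequence is closely related to that of Fcgr3, so how far the probes of either also bind the other transcript is uncertain. The probe set 1435476_a_at read 16030, 15845 and 15163 in WT media, 7796, 11804 and 13638 in WT tumor DNA, and 13728, 16800 and 17560 in STING tumor DNA. The WT tumor DNA arrays were below all others, the third only just, and number 1 was much the lowest. The leading probe set 1435477_s_at read 20198, 17936 and 19442, then 9700, 15410 and 18968, then 17679, 18654 and 20545, and here WT tumor DNA number 3 lay among the other groups. The probe sets 1451941_a_at and 1455332_x_at read 16440 to 18382 and 17396 to 18308 in WT media, 8688 to 16177 and 7679 to 15808 in WT tumor DNA, and 15690 to 19127 and 13816 to 19614 in STING tumor DNA. On both, the WT tumor DNA arrays lay below all WT media arrays but overlapped STING tumor DNA. Over the 10 tested probe sets of the family, groups did not overlap for 7 in DNA against media, 4 higher and these 3 of Fcgr2b lower, where 41.9% of all probe sets did not, and for 6 in the knockout against wild type, where 41.2% did not.

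For DNA against media the log2 differences of the 4 Fcgr2b probe sets were -0.54 ± 0.19, -0.44 ± 0.20, -0.50 ± 0.19 and -0.60 ± 0.23 in the order above (limma adjusted p = 0.0542, 0.135, 0.082 and 0.0811), so none passed. For the knockout against wild type they were 0.56 ± 0.19, 0.42 ± 0.20, 0.49 ± 0.19 and 0.57 ± 0.23 (limma adjusted p = 0.0485, 0.156, 0.0866 and 0.102), and 1435476_a_at alone was called. Against WT media, STING tumor DNA differed by -0.04 to 0.02. With the replicate number as a block, 3 of the 4 were called in both comparisons (limma adjusted p 0.0141 to 0.0211 and 0.013 to 0.0222), and 1435477_s_at was not (0.0658 and 0.0787). All 4 were called in both under quantile normalization (-0.67 to -0.83 and 0.69 to 0.83) and without WT tumor DNA 3 (-0.65 to -0.82 and 0.63 to 0.79), and 1435476_a_at was called for DNA against media with median centring over all probe sets (0.0402). Centring on the tested probe sets shrank them to -0.13 to -0.30 and 0.16 to 0.31 and left 0 calls. The knockout call of 1435476_a_at also ended with an offset of 0 (0.0513), no filter (0.0897), no trend (0.104), only the groups compared (0.085), and without WT media 1, 2 or 3, WT tumor DNA 1 or 2, STING tumor DNA 2 or 3, or number 2 or 3 (0.0614 to 0.179).

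Fcrls, an Fc receptor-like gene best known as a marker of microglia, read 1119, 245 and 175 in WT media, 330, 125 and 59 in WT tumor DNA, and 2735, 713 and 1040 in STING tumor DNA. All STING tumor DNA arrays were above all WT tumor DNA arrays, WT media overlapped both groups, and number 1 was highest in each group. The log2 difference was 3.06 ± 0.74 for the knockout against wild type under DNA (95% interval 1.42 to 4.70, 8.33-fold, limma adjusted p = 0.0127), the widest difference and the widest error among the 10 probe sets. For DNA against media it was -1.32 ± 0.74 (-2.96 to 0.32, limma adjusted p = 0.218), and for STING tumor DNA against WT media 1.74 ± 0.74 (0.10 to 3.38, limma adjusted p = 0.663). With the replicate number as a block, both of these passed (limma adjusted p = 0.00424 and 0.0164) and the first had 5.26e-05. The knockout call ended without number 2 (0.0624) or number 3 (0.104). Of the macrophage markers, the summed levels overlapped between all groups and 1 was called in the same comparison, Mertk, which was lower at -1.65 ± 0.53 (limma adjusted p = 0.0443). Mrc1 was at 1.46 ± 0.58 (limma adjusted p = 0.0933), and with the replicate block 2 of these markers were higher and 1 lower. Their part in the Fcrls difference was not tested.

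**Figure D2:**
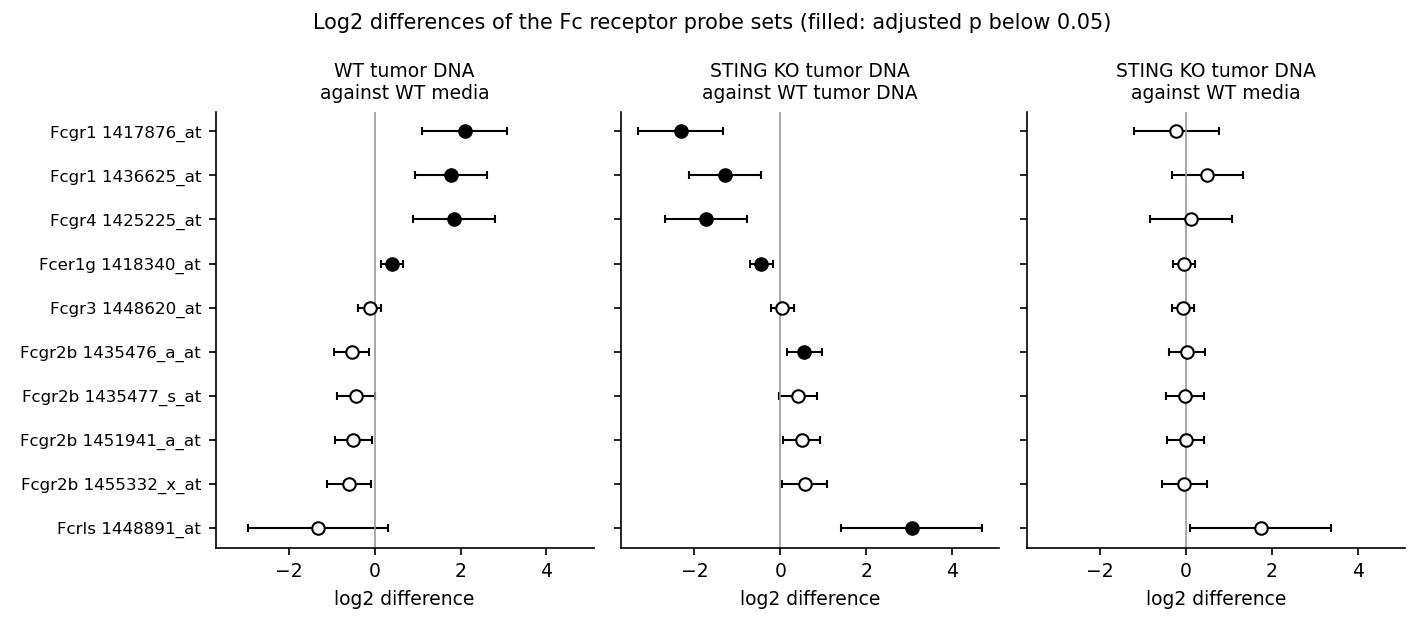
Log2 differences of the 10 tested probe sets in the 3 comparisons, with 95% intervals from the limma fit as bars and filled points where the adjusted p was below 0.05. The Fcgr1, Fcgr4 and Fcer1g points lie right of 0 under DNA and left of 0 in the knockout, and no point is filled for STING tumor DNA against WT media.

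The numbers were taken to pair the arrays, which the labels do not state, and each set of 3 held 1 array of each group. Within the numbers 1, 2 and 3, Fcgr1 (leading probe set) differed by 1.69, 3.06 and 1.54 for DNA against media and by -1.76, -3.06 and -2.13 for the knockout against wild type. Fcgr4 differed by 1.80, 2.65 and 1.08 and by -1.88, -2.15 and -1.14. The size of the difference was thus largest in number 2 for both receptors, whose levels in WT media and STING tumor DNA were lowest there. Fcer1g, in contrast, differed by 0.64, 0.34 and 0.23 and by -0.64, -0.46 and -0.23, largest in number 1. Fcgr2b 1435476_a_at differed by -1.04, -0.42 and -0.15 and by 0.81, 0.51 and 0.36, also largest in number 1 and of the same sign throughout. Fcrls differed by -1.72, -0.89 and -1.35 and by 2.99, 2.37 and 3.82, and for STING tumor DNA against WT media by 1.28, 1.48 and 2.46. Fcgr3 had no such order, at -0.36, 0.04 and -0.03 and at 0.16, -0.02 and 0.00. The arrays numbered 1 read the spiked control BioB at 406 to 552 against 115 to 189 on the others, and what that has to do with the size of these differences was not tested.

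**Figure D3:**
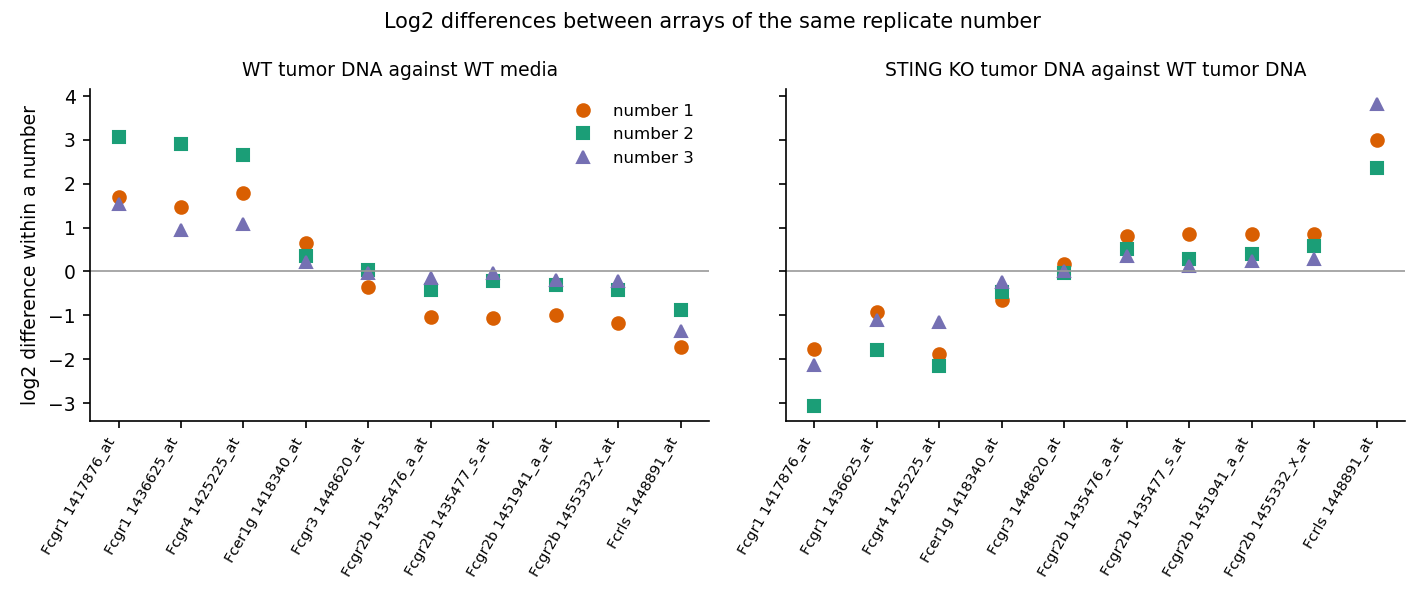
Log2 difference within each replicate number for the 10 tested probe sets, with DNA against media on the left and the knockout against wild type under DNA on the right. Fcgr1, Fcgr4, Fcer1g, Fcgr2b and Fcrls have 1 sign in all 3 numbers of each panel, and the Fcgr2b values of number 1 lie apart from the others on the left.

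Relative to the inhibitory receptor on the same array, the activating receptors Fcgr1 and Fcgr4 differed more. Fcgr3 differed between groups by a smaller size than the leading Fcgr2b probe set, at -0.12 and 0.05 beside -0.44 and 0.42. Its change minus that of Fcgr2b was not computed. The log2 change of Fcgr4 minus that of the leading Fcgr2b probe set was 2.28 for DNA against media (2.85, 2.87 and 1.11 in the 3 numbers) and -2.14 for the knockout against wild type (-2.74, -2.43 and -1.26). For Fcgr1 minus Fcgr2b it was 2.54 and -2.74, and for Fcgr4 minus Fcgr3 it was 1.96 and -1.77. Such a difference does not depend on the scaling of an array by a constant. It shows unequal change of the 2 probe sets and was not given a test. Fcgr1 and Fcgr4 differed from each other less, by 0.26 and -0.59.

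Fcgr2b, Fcgr4 and Fcgr3 follow each other on chromosome 1, with Fcer1g further along the same chromosome. Only Fcgr4 and Fcer1g of these 4 were called by their leading probe sets. Between Fcgr3 and Fcer1g, the tested genes Cfap126, Sdhc, Tomm40l and Apoa2 were called in neither main comparison, with limma adjusted p of 0.3 to 0.949. Fcgr1 and Fcrls lie apart from each other on chromosome 3. Fcrls lies between the tested genes Kirrel and Cd5l, at log2 differences of -0.24 and 0.90 for the knockout against wild type (limma adjusted p = 0.729 and 0.317). Other neighbours were called. Dusp12, before Fcgr2b, was at -0.98 under DNA and 1.23 in the knockout (limma adjusted p = 0.00819 and 0.00256). Etv3, some genes beyond Fcrls, was at 1.13 and -1.15 (0.00342 and 0.00283), and Cd1d1, on its other side, at -0.72 in the knockout (0.0249). The histone gene H2bc18, next to Fcgr1, was at -1.78 in the knockout (limma adjusted p = 0.00729) and at 0.93 under DNA (0.101).

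Over the 9 arrays, the genes whose centred log2 signals lay nearest to those of Fcgr1 were Tmem140, Ms4a6d and AW112010, at root mean square differences of 0.17, 0.24 and 0.29, where Fcgr1 itself had an SD of 1.26 over the arrays. For Fcgr4 (SD 1.06) they were Parp11, the chemokine gene Ccl5 and Ms4a6d, each at 0.27 or 0.28. For Fcer1g (SD 0.25) they were Pilrb1, Ppp1r12a and Utp3, at 0.04, 0.07 and 0.08, distances that are small because its own range is small. Ms4a6d was thus among the nearest 3 of both Fcgr1 and Fcgr4.

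Among the other Fc receptors and antibody-binding genes, 8 of 12 were tested, and 1 was higher under DNA and 2 lower in the knockout, with medians of -0.06 and -0.60 beside -0.20 and 0.20 over all 12586 genes. Of all genes, 9.53% were higher and 22.5% lower under DNA, and 20.5% higher and 9.40% lower in the knockout. Trim21, the cytosolic receptor for antibody-coated particles, read 801 to 1113 in WT media, 3908 to 4556 in WT tumor DNA and 623 to 1300 in STING tumor DNA. It rose by 2.17 ± 0.26 (limma adjusted p = 0.000487) and was at -2.32 ± 0.26 in the knockout (0.000258), and no setting ended either call. Fcer1a, the IgE-binding chain that also pairs with Fcer1g, was lower in the knockout (limma adjusted p = 0.00827, 0.0512 without number 3), at 5.2 to 21.2 against 62.7 to 189 in wild type. Its knockout signals lie below the level of the filter, which it passed through the wild-type groups, so no size is given. With the replicate block, 1 gene of the list was higher and 2 lower under DNA, and 2 were higher and 3 lower in the knockout. The share of all genes called with that block is not given here. Block counts of this list and of those below are therefore not read as a trait of a list. Of the mast cell and basophil markers, 5 of 8 were tested, and their summed signal was 637 to 1450 in WT media, 1630 to 3670 in WT tumor DNA and 439 to 789 in STING tumor DNA. Hdc, Cpa3 and Mcpt8 were lower in the knockout, while Kit and Gata2 were at -0.01 and -0.15 and not called. Hdc alone was called under DNA (higher, limma adjusted p = 0.00195), at 803 to 2050 against 6.58 to 123 in WT media and at most 63.96 in STING tumor DNA, and most of the rise of the sum is its signal. Tpsb2 and Mcpt4 were under the filter, and the part of such cells in the differences of Fcer1a and Fcer1g was not tested. The neonatal receptor gene Fcgrt was not called (-1.27 ± 0.71 under DNA, limma adjusted p = 0.216).

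Of the ITAM adaptors and the other receptors that use them, 14 of 15 were tested. Under DNA 4 were higher and 1 lower (median 0.19), and in the knockout 2 were higher and 2 lower (median -0.13). Among all genes 9.53% were higher and 22.5% lower under DNA (median -0.20), and 20.5% and 9.40% in the knockout (median 0.20). Tyrobp, the adaptor most like Fcer1g in role, differed by -0.05 ± 0.10 under DNA (limma adjusted p = 0.759). Clec4e, a glycolipid receptor that signals through Fcer1g, rose by 0.91 ± 0.16 (limma adjusted p = 0.00286) and was at -0.80 in the knockout (0.00499, 0.0526 without replicate number 3). Cd247, the zeta chain, was called higher under DNA and lower in the knockout, at 92.7 to 175 in WT tumor DNA against 43.3 to 52.6 in WT media and 43.9 to 47.4 in STING tumor DNA, the last 2 under the median signal of every array. Cd300lb was at -1.02 and 1.11. Clec5a was at 1.05 under DNA and Trem2, a lipid receptor of macrophages, at 1.51 in the knockout. These calls of Cd247, Cd300lb, Clec5a and Trem2 ended with at least 1 array or number left out, at limma adjusted p up to 0.165. Without number 3 the list had 1 higher and 0 lower under DNA and 0 calls in the knockout, and with the replicate block it had 4 and 2, and 3 and 3.

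Of the Src, Syk and Tec family kinases, 7 of 11 were tested, and Lyn had no probe set that carries its symbol alone. Under DNA 2 were higher and 0 lower (median -0.20), and in the knockout 0 were higher and 1 lower (median 0.23). The all-gene shares were 9.53% higher and 22.5% lower (median -0.20), then 20.5% and 9.40% (median 0.20). Fyn rose by 1.12 ± 0.18 (limma adjusted p = 0.00208), from 127 to 172 in WT media to 312 to 369 in WT tumor DNA, and no setting ended that call. In STING tumor DNA Fyn read 286 to 298, above every WT media array. It was not called there against WT tumor DNA (-0.25 ± 0.18, limma adjusted p = 0.349) or against WT media (0.87 ± 0.18, 0.106). Src was at 0.66 under DNA (0.0353, 0.0545 or less over the scalings and models, 0.177 or less with arrays left out) and at -1.01 in the knockout (limma adjusted p = 0.00523, 0.0623 without number 3). A second Src probe set was at 1.09 (0.0646) and -1.36 (0.0285). In the knockout 2 kinases were lower with the replicate block and 0 without number 3. Syk itself was at -0.20 ± 0.13 and 0.23 ± 0.13 (limma adjusted p = 0.291 and 0.238).

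Of the adaptors and lipid enzymes downstream of Syk, 23 of 24 were tested: 7 were higher and 3 lower under DNA (median 0.44), and 2 higher and 2 lower in the knockout (median -0.17). For all genes these were 9.53% and 22.5% under DNA (median -0.20), and 20.5% and 9.40% in the knockout (median 0.20). Prkce, a protein kinase C, was at 0.99 ± 0.17 under DNA (limma adjusted p = 0.00267, 0.055 without number 3) and at -1.24 ± 0.17 in the knockout (0.000804, ended by no setting). Pld1, a phospholipase D, was at -0.96 ± 0.18 under DNA (limma adjusted p = 0.00401), also ended by no setting, but of its other probe sets 1 was at -0.79 (0.0336) and 1 at -0.27 (0.449), uncalled. Of the other Prkce probe sets 1 was uncalled too (0.95 and -0.70, limma adjusted p = 0.184 and 0.338). The adaptors Sh3bp2 and Lcp2 were at 0.78 and 0.75 under DNA, and in the knockout Sh3bp2 was at -0.56, Pik3cg at 1.01 and Shc1 at 0.90. These last calls all ended with at least 1 array or number left out (limma adjusted p up to 0.219). Second probe sets of Lcp2 and Shc1 were not called (0.52 and 0.32, limma adjusted p = 0.125 and 0.443). The second Pik3cg probe set was called higher in the knockout (1.52, limma adjusted p = 0.00198). The counts moved with the fit. Under DNA they were 11 higher and 3 lower with the replicate block, 4 and 3 with median centring over all probe sets, and 0 and 1 without number 3. In the knockout they were 3 and 3 with the block and 0 and 1 without number 3.

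Of the inhibitors of ITAM signalling, 17 of 23 were tested: 1 was higher and 3 lower under DNA (median -0.23), and 6 were higher and 1 lower in the knockout (median 0.22). Over all genes the same shares were 9.53% and 22.5% (median -0.20), and 20.5% and 9.40% (median 0.20). Clec4a2, an inhibitory lectin receptor of dendritic cells, fell by 1.56 ± 0.22 under DNA (limma adjusted p = 0.00108, ended by no setting), from 11100 to 11800 down to 2780 to 5680, and was at 1.35 in the knockout (0.00181, 0.0606 without number 3). Cd300lf was at 1.77 and -1.58, opposite to it. Cbl, an E3 ligase, was at -0.70 and 0.80, Inpp5d, the lipid phosphatase that Fcgr2b recruits, at -0.86 under DNA (limma adjusted p = 0.023), and Cd300a at 1.60 in the knockout. The calls of Cd300lf, Cbl, Inpp5d and Cd300a ended with at least 1 array or number left out, at up to 0.241. Other probe sets of these genes were not called: Clec4a2 at 0.92 in the knockout (0.073), Cbl at -0.27 and -0.52 under DNA (0.56 and 0.0688) and 0.26 and 0.36 in the knockout (0.583 and 0.19), Inpp5d at -0.51 (0.154) and Cd300a at 1.18 (0.0833). The second Clec4a2 probe set was called under DNA (-1.61, limma adjusted p = 0.00674). Ptpn6 was at 0.56 ± 0.26 under DNA (0.135). These counts also moved with the fit. The replicate block gave 3 higher and 7 lower under DNA and 7 and 3 in the knockout. Over all probe sets, 31.4% of the calls with that block were higher under DNA and 67.8% in the knockout. Those are shares of the calls and not of the probe sets tested, so they give no background for the block counts. In the knockout quantile normalization gave 3 and 0, centring on the tested probe sets 1 and 1, and leaving out number 1, 2 or 3 gave 2 and 1, 3 and 0, and 0 and 0.

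Of the phagocytic cup and actin regulators, 21 of 24 were tested: 3 were higher and 2 lower under DNA (median 0.14), and 2 higher and 2 lower in the knockout (median -0.10). Beside them, 9.53% of all genes were higher and 22.5% lower under DNA (median -0.20), and 20.5% and 9.40% in the knockout (median 0.20). Vav2, a guanine nucleotide exchange factor, fell by 1.80 ± 0.23 under DNA (limma adjusted p = 0.000648), from 556 to 650 down to 120 to 232, and was at 1.83 ± 0.23 in the knockout (0.000462). No setting ended either call. Was was at -0.76 and 0.62, Actr3 at 0.40 and -0.48 and Crkl at 0.69 and -0.71, and each of these calls ended under some scaling or with arrays left out (limma adjusted p up to 0.208). The other probe sets of Crkl had like differences (0.71 and 0.78, then -0.63 and -0.80) and were not called (0.0607 to 0.0957). Those of Actr3 were called in both comparisons (0.31 and 0.41, then -0.32 and -0.42, limma adjusted p 0.00807 to 0.0359). With the replicate block 4 were higher and 3 lower under DNA and 2 higher and 4 lower in the knockout, and without number 3 these were 0 and 1, and 1 and 1. Centring on the tested probe sets gave 9 higher and 1 lower under DNA and 1 higher and 6 lower in the knockout. In STING tumor DNA against WT media, limma called 0 genes in each of these 6 lists, where 0.421% of all genes were called. With the replicate block it called 1 lower among the other Fc receptors and 1 higher among the kinases.

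Several list medians changed sign with the scaling. With centring on the tested probe sets, the medians under DNA became 0.25 for the other Fc receptors, 0.10 for the kinases and 0.07 for the inhibitors, and those in the knockout became -0.03 for the kinases and -0.04 for the inhibitors. With quantile normalization, the median was 0.02 for the other Fc receptors under DNA, and in the knockout 0.13 for the ITAM adaptors and 0.09 for the phagocytic regulators.

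**Figure D4:**
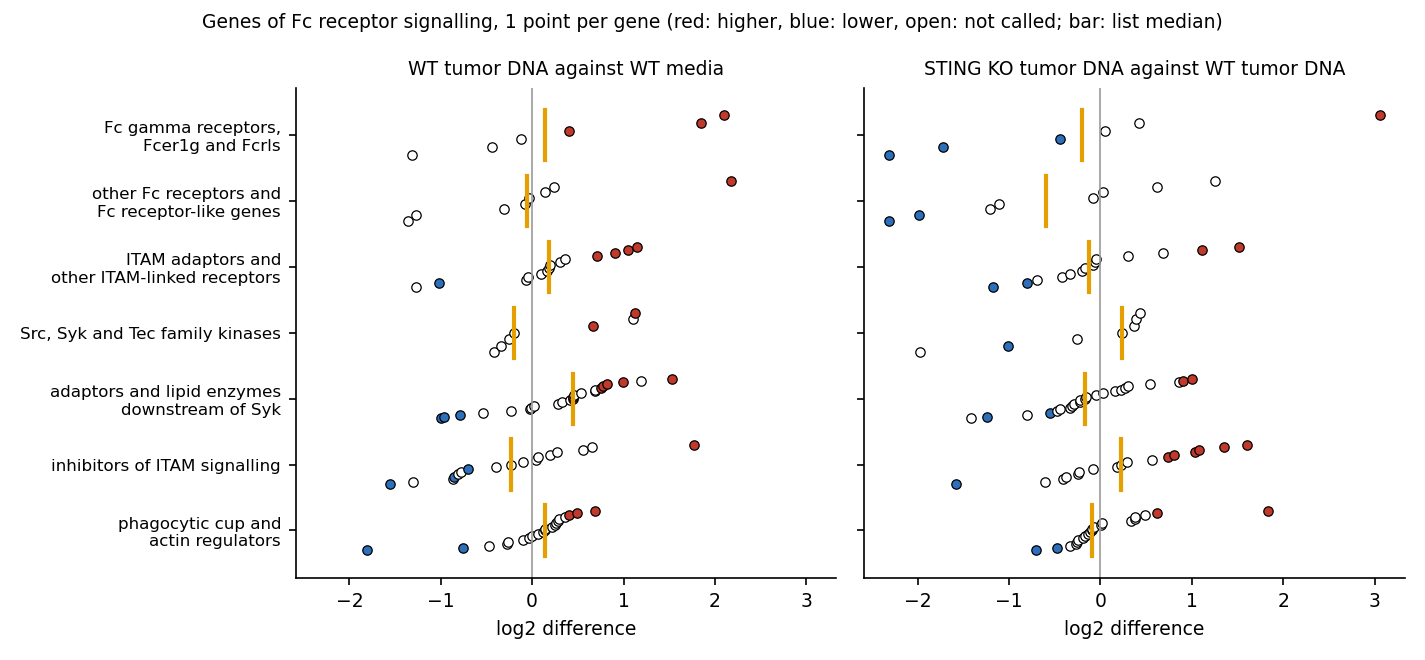
Log2 differences of each tested gene of the Fc receptor family and of the 6 lists, 1 point a gene, with called genes in red (higher) or blue (lower), others open, and each list's median as a bar. Fcgr1, Fcgr4, Trim21 and, among the inhibitors, Cd300lf are the red points near 2 on the left, while most points of the signalling lists are open and the medians stay within 0.44 of 0 on the left.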

How the data were processed

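The deposited values are MAS5 signal intensities of the authors' 9 arrays, with MAS5 named per the submitters' processing notes; which version was used is not given in the sources used here, and no detection calls were used. Of 45101 probe sets, 64 controls were left out. Genes were named from the platform annotation where it gives 1 symbol. Signals were analysed as log2(signal + 16), an offset that understates changes of low signals. The 27022 probe sets with a mean above the 40th percentile (5.667) entered 1 fit of all 9 arrays (R 4.3.3, limma 3.58.1, lmFit and trended eBayes, 2-sided tests). Benjamini-Hochberg adjustment ran over all of them. This fit was tested on simulated data with independent noise, which did not hold the pairing or the scaling shifts of these arrays. A gene stands by its probe set with the highest mean, and levels of different probe sets were not compared. The number of arrays limits the precision.

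Named were every member probe set, Sting1, of each list up to 4 called genes with the smallest adjusted p in each main comparison, and for the called members the 3 genes nearest over the arrays. Other genes (Tyrobp, Syk, Ptpn6, Fcgrt, Lyn, the marker and neighbouring genes) were named by role or position. The members and lists were chosen with earlier results of these data known.

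Replicate numbers come from the titles. Residuals of arrays with the same number correlated at 0.111 to 0.434 in 9 pairs, against -0.365 to 0.16 in 18 pairs differing in number and group, so the numbers were taken to pair the samples, and fits with that block are given where they change a call of a member or the counts of a signalling list. Every p-value and call not said to use that block is from a fit that ignores this pairing. Alternatives were the offset, filter, scaling, trend, block, 1 probe set per gene, only the groups compared, and each array or number left out. Median centring over the tested probe sets was added after centring over all probe sets was seen.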

Additional observations from a re-analysis of the deposited data

How the results depend on the processing

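Of 648 values of member probe sets under the alternatives, 575 kept their direction and their side of the threshold or were uncalled throughout, 51 lost a call, 22 gained a call and 0 had a call reversed. Family probe sets called in WT tumor DNA against WT media were 4, but 7 under quantile normalization (3 higher, 4 lower), 8 with the replicate block (4 and 4), and 1 to 8 with arrays left out (lowest without number 3, highest without WT tumor DNA 3). In STING tumor DNA against WT tumor DNA they were 6, with 0 (without number 3) to 9 (without WT tumor DNA 3) when arrays were left out. In STING tumor DNA against WT media the replicate block called 1 in place of 0, Fcrls, and leaving arrays out gave 0 each time. The block changed no other count of family calls by over 1.5 times.

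Over all probe sets, calls were 7284, 6796 and 103. With 1 probe set per gene they were 4224, 3970 and 54, of fewer tested. With the replicate block the third was 323. With arrays left out they were 2206 to 7267, 2156 to 6744 and 5 to 224, lowest each time without number 3. Shares of all genes called with the replicate block are not given here. A higher count of the family or of a list with that block is therefore not read as a trait of it. The share of calls that were higher was 31.7% under DNA and 66.8% in the knockout. It became 42.6% and 57.6% with quantile normalization, and 63% and 40.9% with centring on the tested probe sets, which moved their median from -0.16 to 0.14 and from 0.16 to -0.10. The cause was not tested. Low signals cannot be told from background without detection calls, which limits Fcrls in WT tumor DNA, Fcer1a in the knockout, and Hdc and Cd247 in WT media and the knockout.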
